A study of Mus musculus with 16 samples.

Results

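The genes described here encode receptors that CD8+ T cells use to hold on to vessel walls, to other cells and to matrix, and to leave lymphoid tissue. There were 9 of them, found by their symbols among the 55536 annotated genes of the count table: the integrin alpha chains Itgal, Itga4, Itgae and Itga1, the integrin beta chains Itgb2, Itgb1 and Itgb7, the hyaluronan receptor Cd44 and the egress receptor S1pr1. Transcripts of Cd44, 9 in the annotation, were included. All 9 genes passed the filter on low counts.

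The study asked how the RNA-binding protein TDP-43, encoded by Tardbp, shapes the transcriptome of costimulated CD8+ T cells. OT-I cells, whose transgenic receptor sees the ovalbumin peptide SIINFEKL and which came per the methods from Rag-deficient mice on a C57BL/6J background, were electroporated with Cas9 and either a scrambled guide RNA (Control gRNA, 8 libraries) or a guide against Tardbp (Tardbp gRNA, 8 libraries). Both groups were transferred into C57BL/6J recipients, and both received the peptide with agonist antibodies to OX40 and 4-1BB. Both were collected from spleen and lymph nodes as CD8+ cells, sorted per the methods by the CD45 marks of the transferred cells. Collection was after 4 days per the labels and somewhat earlier per the methods. The results text of the study also mentions stimulation of the purified cells, and whether the sequenced cells received it is not clear. Mice of both sexes were used, with 5 libraries marked F and 3 marked M in Control gRNA and the reverse, 3 and 5, in Tardbp gRNA, and ages were given as ranges for the study rather than per library. No selection for edited cells is described, so a Tardbp gRNA library may hold unedited cells too. From an immunoblot of pooled cells of this model, the paper reports that TDP-43 protein was not made under the Tardbp guide. The Tardbp RNA level given below does not measure that protein. Each library is described as 1 recipient, and no source says how many donor pools or electroporations stand behind the libraries of a group. The p-values therefore measure the spread between these libraries.

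An integrin is a pair of 1 alpha and 1 beta chain, and neither chain reaches the cell surface well without a partner. Itgal pairs with Itgb2 to give LFA-1, the receptor for ICAM molecules that T cells use at the immune synapse and on vessel walls. Itga4 pairs with Itgb1 (VLA-4, which binds VCAM-1 and fibronectin) or with Itgb7 (the gut-homing receptor for MAdCAM-1). Itgae pairs with Itgb7 (the CD103 integrin, which binds E-cadherin on epithelium) and Itga1 with Itgb1 (VLA-1, a collagen receptor), and both are known from T cells lodged in tissue. CD44 binds hyaluronan and is a surface mark of activated and memory T cells. S1PR1 senses sphingosine 1-phosphate and guides T cells out of lymph nodes.

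The libraries held 56016533 to 94801105 estimated counts in annotated genes. Tardbp, the targeted gene, had 172 to 207 CPM (counts scaled to a common library size with the TMM method) in Control gRNA against 110 to 147 in Tardbp gRNA, without overlap, a log2 fold change of -0.51 ± 0.06 (SE, n = 8 and 8, edgeR adjusted p = 8.1e-07). The summed level of 8 genes of CD8 T cells was 5309 to 6386 CPM in Control gRNA against 6675 to 7935 in Tardbp gRNA, with 7 of the 8 called higher, and Cd4 was at most 0.601 CPM in every library. Of other cell types, the 8 myeloid genes summed to 14.6 to 37.6 CPM and 25.9 to 86.5 CPM, with Lyz2 and Fcgr3 higher in Tardbp gRNA, the 4 NK genes to 15.4 to 70.8 and 39.9 to 108, with Eomes, which CD8 T cells also express, the 1 called, and the 6 red cell genes to 0.36 to 15.6 and 7.71 to 153, with the 3 globin genes higher. The sums of the 6 B cell genes (6.85 to 13.1 and 7.28 to 18.7 CPM), the 4 CD4 T cell genes (4.39 to 20.7 and 6.15 to 15.6) and the 5 platelet genes (0.09 to 1.34 and 0.21 to 2.12) overlapped, with none called, and of the 5 endothelial and stromal genes (26.04 to 46.3 and 45.1 to 64.1 CPM) Pecam1, which T cells express, was the 1 called, higher. Of the markers that define these types, Pax5, Siglech and Col1a2 had a median of 0 in both groups. The part of such cells in the values below was not tested. The deposited RNA concentration did not overlap between groups (34.9 to 197.1 in Control gRNA, 10.1 to 24 in Tardbp gRNA, no unit given), so that concentration and guide cannot be told apart.

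The 3 integrin beta chains fell in Tardbp gRNA, by about 25 to 30% of the Control gRNA mean. Itgal and Cd44 fell by about 12% each, S1pr1, Itga4, Itgae and Itga1 did not pass the test, and no gene of the 9 was called higher. In all, 5 of 9 genes were called at an adjusted p under 0.05, all lower, where 46.7% of all 16650 tested genes were called and 23.3% were called lower. Of the called genes 50.2% were higher, or 61.2% with upper quartile scaling, under which Itgb2, Itgb7 and Itgb1 were the 3 members called. The median log2 fold change was -0.18 over the 9 genes and 0.05 over all tested genes. In 1 of the 9 genes, Itgb2, the groups did not overlap, as in 16.9% of all tested genes. The sort was for transferred CD8+ cells in bulk, so fewer cells expressing a gene and less RNA per cell cannot be told apart.

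**Figure D1:**
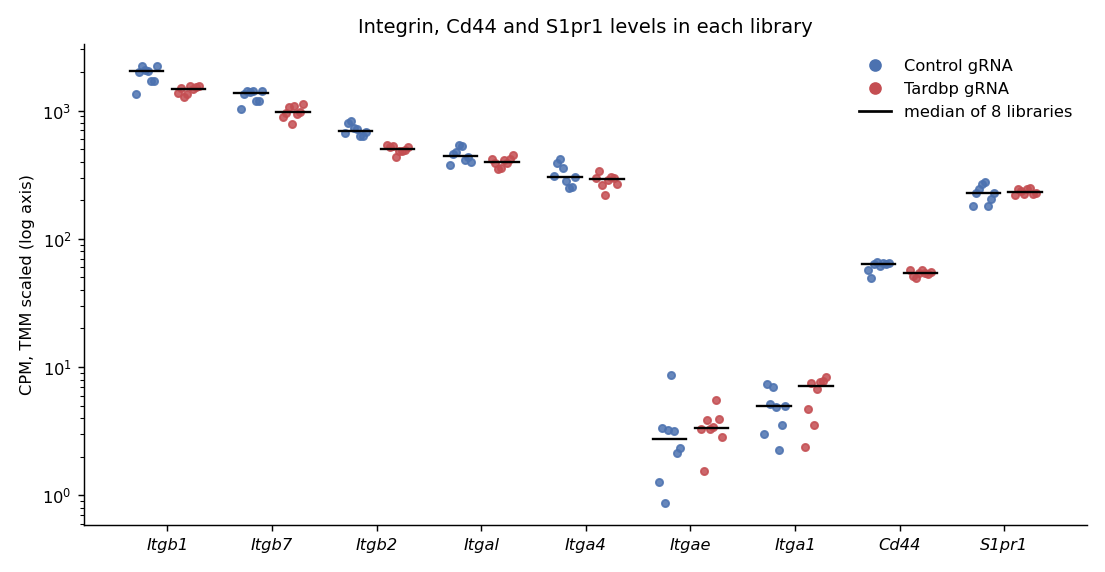
Level of each gene in every library, in CPM on a log axis. Each point is 1 library (blue, Control gRNA; red, Tardbp gRNA) and each black line the median of 8. The Itgb2 points of the groups are apart. Those of Itgb1 and Itgb7 overlap, with 7 of 8 Control gRNA libraries above all Tardbp gRNA libraries in each. Itgae and Itga1 lie under 9 CPM in every library.

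Itgb2 (chromosome 10, 77530252 to 77565708, plus strand, GRCm38) encodes the beta2 chain, CD18, which all leukocyte integrins of the LFA-1 type share. Its level ran from 630 through a median of 694 to 827 CPM in Control gRNA and from 436 through 505 to 534 CPM in Tardbp gRNA. Every Tardbp gRNA library lay below every Control gRNA library. The log2 fold change was -0.51 ± 0.06 (SE, n = 8 and 8, edgeR quasi-likelihood test, adjusted p = 1.35e-06). This call held in each alternative run, including the 3 libraries per group numbered 1 to 3 alone (-0.57, adjusted p = 0.0173) and with RNA concentration as a covariate (-0.62, adjusted p = 0.00267). As the groups do not overlap in concentration, a fit with this covariate cannot separate concentration from guide, for this gene or those below.

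Itgb7 (chromosome 15, 102215995 to 102231944, minus strand) encodes the beta7 chain of the gut-homing and CD103 integrins. It was measured at 1033 to 1431 CPM in Control gRNA with a median of 1368, and at 785 to 1116 CPM in Tardbp gRNA with a median of 968. In Control gRNA, 7 of 8 libraries were above the highest Tardbp gRNA library, and the lowest Control gRNA library sat inside the Tardbp gRNA range. The log2 fold change was -0.42 ± 0.08 (SE, edgeR adjusted p = 0.000194).

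Itgb1 (chromosome 8, 128685654 to 128733200, plus strand) encodes the beta1 chain, the partner of both Itga4 and Itga1. Control gRNA libraries held 1347 to 2232 CPM (median 2029) and Tardbp gRNA libraries 1278 to 1565 CPM (median 1480). Again 7 of 8 Control gRNA libraries were above all Tardbp gRNA libraries. The log2 fold change was -0.40 ± 0.09 (SE, edgeR adjusted p = 0.000717), and it was wider with RNA concentration as a covariate (-0.88, adjusted p = 0.00061). In the libraries numbered 1 to 3 alone, neither Itgb1 (-0.46, adjusted p = 0.118) nor Itgb7 (-0.41, adjusted p = 0.071) passed the test, at about the same fold change.

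Of the alpha chains, Itgal (chromosome 7, 127296260 to 127335138, plus strand) was the 1 called. It had 374 to 538 CPM in Control gRNA (median 446) and 348 to 448 CPM in Tardbp gRNA (median 401), ranges that overlapped widely. The log2 fold change was -0.18 ± 0.07 (SE, edgeR adjusted p = 0.0464). This call was at the edge of the threshold: it was lost on leaving out any of 8 of the 16 libraries (adjusted p up to 0.0999, without Control gRNA library 5) and under 7 of 10 other settings, with adjusted p up to 0.34.

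Itga4 (chromosome 2, 79255426 to 79333123, plus strand), the alpha chain of VLA-4, held 248 to 422 CPM in Control gRNA against 221 to 338 CPM in Tardbp gRNA. The groups overlapped over most of their range (log2 fold change -0.17 ± 0.11, SE, edgeR adjusted p = 0.189). Itgae (chromosome 11, 73090583 to 73147446, plus strand) had 0.871 to 8.60 CPM and 1.56 to 5.55 CPM, and Itga1 (chromosome 13, 114953096 to 115101964, minus strand) 2.24 to 7.36 CPM and 2.38 to 8.39 CPM. Both tissue-lodging alpha chains were thus low in every library and their groups overlapped, at a log2 fold change of 0.15 ± 0.35 for Itgae (edgeR adjusted p = 0.761) and 0.35 ± 0.27 for Itga1 (edgeR adjusted p = 0.302). The direction of Itgae turned without Tardbp gRNA library 6, and in Control gRNA the highest value came from library 5, without which the log2 fold change was 0.57 (edgeR adjusted p = 0.112).

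Cd44 (chromosome 2, 102811141 to 102901665, minus strand) was measured at 49.8 to 66.3 CPM in Control gRNA, with a median of 64.1, and at 49.6 to 57.2 CPM in Tardbp gRNA, with a median of 54.4. All 8 Tardbp gRNA libraries were under the Control gRNA median, and 2 Control gRNA libraries lay within the Tardbp gRNA range. The log2 fold change was -0.18 ± 0.06 (SE, edgeR adjusted p = 0.0117). The call was lost with upper quartile scaling (-0.11, adjusted p = 0.119), with RNA concentration as a covariate (-0.29, adjusted p = 0.108) and in the libraries numbered 1 to 3 (-0.14, adjusted p = 0.494).

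S1pr1 (chromosome 3, 115710433 to 115715072, minus strand) held 180 to 276 CPM in Control gRNA against 219 to 248 CPM in Tardbp gRNA. The Tardbp gRNA libraries lay inside the Control gRNA range, with a median of 226 CPM in Control gRNA and 231 CPM in Tardbp gRNA. The log2 fold change of 0.05 ± 0.08 (SE, adjusted p = 0.638 with edgeR) had a 95% interval of -0.11 to 0.21.

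**Figure D2:**
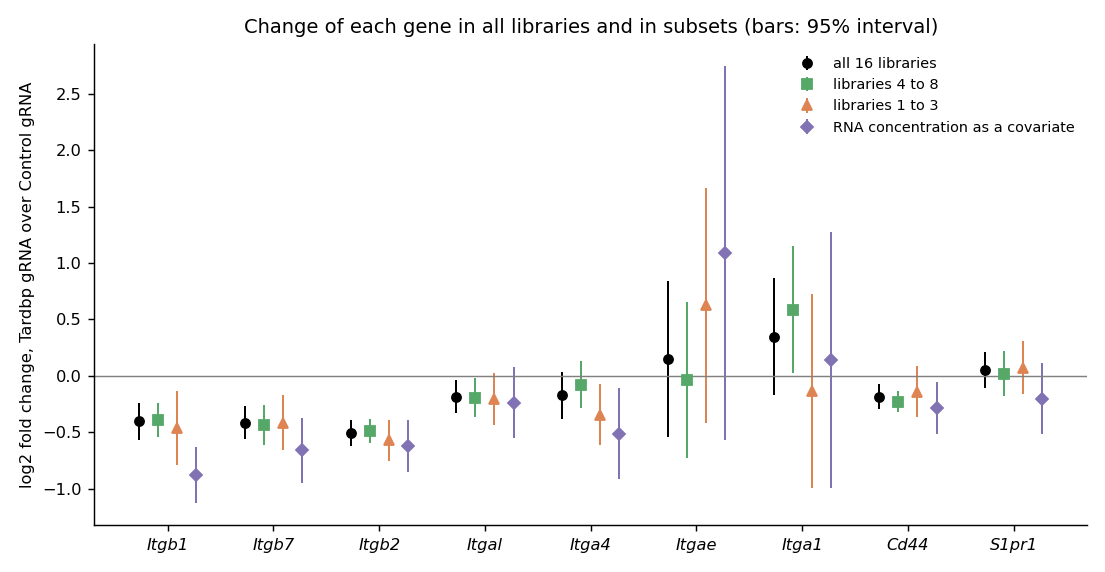
Log2 fold change of Tardbp gRNA over Control gRNA for each gene, with 95% intervals, in all 16 libraries, in the libraries numbered 4 to 8, in those numbered 1 to 3 and with RNA concentration as a covariate. The 3 beta chains lie below 0 with their intervals in each of these fits, S1pr1 crosses 0 in each, and the intervals of Itgae and Itga1 span more than any other.

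The division into libraries 1 to 3 and 4 to 8 follows a difference between library numbers seen in earlier results of these data and stands in no label. In libraries 4 to 8 alone, 4 of the 9 genes were called, all lower: Itgb2 (-0.49, adjusted p = 2.57e-05), Itgb7 (-0.44, adjusted p = 0.00209), Itgb1 (-0.39, adjusted p = 0.00156) and Cd44 (-0.23, adjusted p = 0.00168, all edgeR). The test of a different response in libraries marked M and F called none of the 9 genes and 0 of 16650 genes with edgeR, with 662 of all genes and 0 of the 9 at an unadjusted p under 0.05.

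Levels were compared between genes per length, as TPM, counts divided by transcript length and scaled to 1 total. In Control gRNA the order was Itgb1 (845 ± 144 TPM, SD, n = 8), Itgb7 (808 ± 100), Itgb2 (401 ± 43.7), Itgal (147 ± 24.1), S1pr1 (122 ± 20.7), Itga4 (81.0 ± 20.9), Cd44 (31.2 ± 2.95), Itgae (1.34 ± 1.03) and Itga1 (1.06 ± 0.506). The ranges of neighbours overlapped in Control gRNA between Itgb1 and Itgb7, between Itgal and S1pr1, between S1pr1 and Itga4, and between Itgae and Itga1, and at the other steps they did not. The beta chains were thus the most abundant of the 9, and each was above its alpha partners in every library. The order was the same by mean in Tardbp gRNA.

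The level of each alpha chain over its beta partner was then compared, since it joins the members into the pairs that the cell assembles. Itgal over Itgb2, the LFA-1 pair, ran from 0.311 through a median of 0.353 to 0.459 in Control gRNA and from 0.374 through 0.461 to 0.494 in Tardbp gRNA. All 8 Tardbp gRNA libraries were above the Control gRNA median and 4 were above its highest library. The mean difference was 0.31 on the log2 scale ± 0.08 (SE), with an exact two-sided permutation p = 0.00389 and an adjusted p = 0.0153 over the 5 pairs. In these terms there were 2.84 Itgb2 per Itgal in the median Control gRNA library and 2.17 in Tardbp gRNA.

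The pairs of Itga4 moved the same way in per-length levels. Itga4 over Itgb1 rose from a median of 0.0938 to 0.129 (0.39 ± 0.12 log2, SE, exact permutation adjusted p = 0.0153) and Itga4 over Itgb7 from 0.0989 to 0.132 (0.40 ± 0.13 log2, SE, exact permutation adjusted p = 0.0153). Both of these rest on the length correction: as ratios of estimated counts they were 0.23 and 0.25 on the log2 scale, with exact permutation adjusted p = 0.0608 each. The per-length level of a gene sums all its transcripts, coding or not. Itga4-202, Itga4-203 and Itga4-205 have no coding frame and are 2936, 1826 and 2314 bases long. Each of their counts thus weighs more than 1 of the coding Itga4-201, of 9767 bases. Itga4-201 itself had a log2 fold change of -0.30, and its own ratio to the beta chains was not tested. The LFA-1 pair passed on counts too (exact permutation adjusted p = 0.00777). Itga1 over Itgb1 stood at medians of 0.00114 and 0.00227, a difference of 0.80 ± 0.33 log2 (SE, exact permutation adjusted p = 0.0363) that missed the threshold on counts (0.73, exact permutation adjusted p = 0.0501) and on leaving out any of 9 of the 16 libraries (exact permutation adjusted p up to 0.0715, without Tardbp gRNA library 3). Itgae over Itgb7 did not pass (0.79 ± 0.39 log2, SE, exact permutation adjusted p = 0.0617), and it passed without Control gRNA library 5 (1.02, exact permutation adjusted p = 0.0163) and without Tardbp gRNA library 2 (0.93, exact permutation adjusted p = 0.0326). With 3 libraries per group, numbers 1 to 3, an exact permutation test cannot go below p = 0.1, and the log2 difference there was 0.35 for Itgal over Itgb2, 0.23 for Itga4 over Itgb1, 0.18 for Itga4 over Itgb7, 0.39 for Itga1 over Itgb1 and 1.16 for Itgae over Itgb7.

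**Figure D3:**
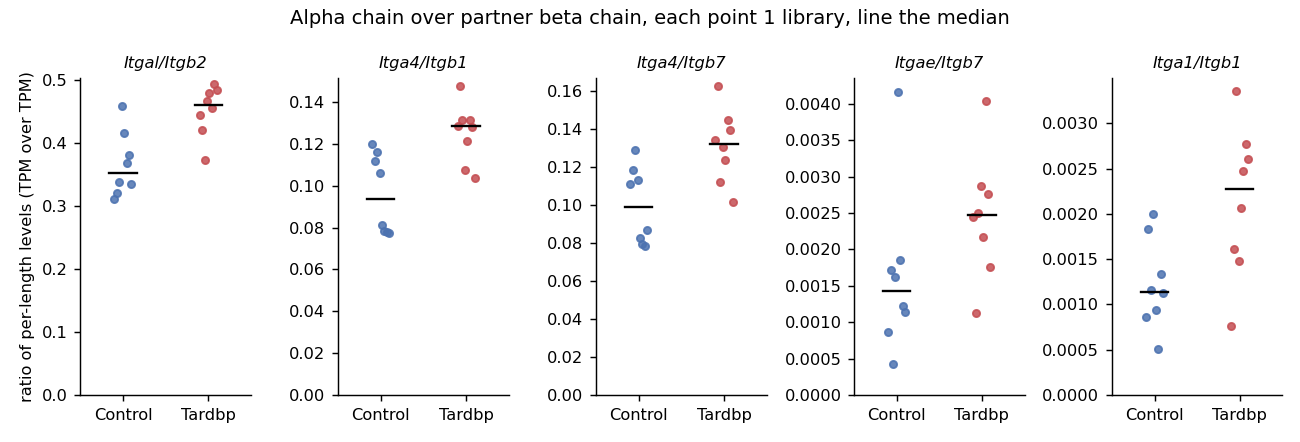
Level of each integrin alpha chain over its beta partner, as TPM over TPM on linear axes from 0, with 1 point per library and a line at the median of each group. In the first 3 panels all 8 Tardbp gRNA points lie above the Control gRNA median, and in the Itgae panel 1 Control gRNA library, number 5, lies above all others.

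The transcripts behind these genes were examined next. Of 43 annotated transcripts of the 9 genes, 28 passed the filter and 7 were called, all lower, beside 16.6% of 40897 transcripts tested. The main transcript of each beta chain was among them: Itgb2-201 (-0.55 ± 0.06 log2, SE, edgeR adjusted p = 7.92e-06), Itgb7-201 (-0.46 ± 0.07) and Itgb1-201 (-0.43 ± 0.08). Itgb2-202, a short coding transcript under 5 CPM (-0.90 ± 0.20), Itgb1-202, marked for nonsense-mediated decay (-0.74 ± 0.23), Itga4-201 (-0.30 ± 0.10) and Cd44-203 (-0.33 ± 0.08, edgeR adjusted p = 0.0103) were the others. The calls of Itga4-201 and Itgb1-202 were near the threshold (edgeR adjusted p = 0.0416 and 0.036) and were lost under 6 and 5 of 8 alternatives. The other 5 calls were lost under 1 (the 3 main transcripts of the beta chains), 2 (Cd44-203) and 3 (Itgb2-202) of the 8. A transcript that was not called may still differ.

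The coding transcript of Itga4, Itga4-201, took 80.5 to 88.7% of the gene's estimated counts in Control gRNA against 77.3 to 82.3% in Tardbp gRNA, a difference of -5.37 percentage points ± 1.303 (SE, limma adjusted p = 0.0293). Itga4-202 and Itga4-203, processed transcripts without a coding frame, differed by 2.10 ± 0.51 and 1.42 ± 0.38 points (SE, limma adjusted p = 0.03 and 0.0444). The adjusted p of the Itga4-201 share exceeded 0.05 under 4 of 6 alternatives, such as the logit of the share (limma adjusted p = 0.0933) and the libraries numbered 1 to 3 (limma adjusted p = 0.7). With the length-scaled share those of Itga4-202 and Itga4-203 were 0.0648 and 0.0657, and with the logit 0.0983 and 0.0822 (limma). None of these reached the set limit of 10 points, and no share of the 9 genes did with an adjusted p under 0.05, where 0.635% of all 32777 shares did. By adjusted p alone 4 of 27 shares of these genes passed, beside 4.42% of all shares.

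Cd44 is the classic case of a surface receptor cut into many forms by splicing. Between 5 shared exons at the start and the shared exons that encode the membrane-spanning part lie 10 variable exons, exons 6 to 15 of the long transcript Cd44-201, and blood cells mostly make the standard form that skips them all. Cd44-203, with 9 exons, is that standard form. The 2 sequences below are the joins that tell the forms apart, with the first bases of the shared exon 16 in capitals, and the third is the variable exon that was included most, the last of the 10, at chr2:102831330-102831536 on the minus strand (GRCm38, from the GENCODE M21 transcripts).
Cd44-203, exon 5 joined to the shared exon: gcaccttggccaccaGAGATCGAGACTCAT
Cd44-201, exon 15 joined to the shared exon: atggctccttaccagGAGATCGAGACTCAT
Cd44-201, exon 15: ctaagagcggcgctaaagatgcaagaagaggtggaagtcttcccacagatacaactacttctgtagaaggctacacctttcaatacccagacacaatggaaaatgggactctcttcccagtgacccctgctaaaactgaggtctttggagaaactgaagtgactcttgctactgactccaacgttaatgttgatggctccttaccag

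Inclusion of a core exon was given by the authors as Psi, the percentage of reads at a node that include it. At start and end nodes Psi was read as use of that start or end. The first node of the last Cd44 exon, held by 8 of the 9 transcripts, had only 0.074 and 0.087%. Psi was 1 value per group of 8 libraries, so no spread or test stands behind it. The 10 variable exons of Cd44 had a Psi of 1.21 to 4.45% in Control gRNA against 1.38 to 5.88% in Tardbp gRNA. The 7 other core exons had 99.2 to 99.5% and 99.3 to 99.4%. The standard form thus dominated in both groups, and the difference between groups was at most 1.43 points for any core exon, that of exon 15 (4.45 and 5.88%).

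The end of the Cd44 message differed more than its core exons. Of 30 Cd44 nodes, 2 differed by more than 5 points, both at this end, beside 9.65% of 125520 nodes in all genes. The most distal node of the last exon, chr2:102811141-102812529, 1389 bases held by 2 of the 9 annotated transcripts, had a Psi of 22.9% in Control gRNA against 32.2% in Tardbp gRNA. The node of 10 bases at chr2:102814120-102814129, a short end where Cd44-204 and Cd44-205 finish, had 51.0 and 45.2%. The 1573-base node in which Cd44-203 ends, chr2:102812547-102814119, had 17.7 and 17.9%, and the 17-base node after it, where Cd44-202 ends, chr2:102812530-102812546, had 8.51 and 4.83%. These nodes belong to alternative ends of the message.

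The transcript counts set Cd44-201 against Cd44-203. Cd44-203 was measured at 33.6 to 49.0 CPM in Control gRNA against 29.8 to 38.5 CPM in Tardbp gRNA, and Cd44-201 at 15.4 to 19.99 and 16.4 to 20.3 CPM. Only the first fell, while Cd44-201 had a log2 fold change of 0.03 ± 0.08 (SE, adjusted p = 0.873 with edgeR). Cd44-201 took 24.97 to 33.2% of Cd44 counts in Control gRNA against 30.4 to 36.7% in Tardbp gRNA, a difference of 5.44 points ± 1.303 (SE, limma adjusted p = 0.0275), and Cd44-203 took 61.9 to 73.3% and 62.9 to 67.1% (-4.92 ± 1.44 points, SE, limma adjusted p = 0.0719). Cd44-201 carries both the 10 variable exons and the distal 3' end. Its share of 24.97 to 36.7% stands beside a Psi of at most 5.88% for any of its variable exons and of 22.9 to 32.2% for its distal end, so its counts cannot be read as variable exon inclusion. The difference in its share was under the limit of 10 points, and its adjusted p exceeded 0.05 under 3 of 6 alternatives, among them the logit of the share (limma adjusted p = 0.158) and the libraries numbered 1 to 3 (limma adjusted p = 0.851). Of the other tested transcripts, Cd44-206 had 0 to 2.83 CPM and 0 to 1.14 CPM (edgeR adjusted p = 0.559) and Cd44-209 0.132 to 0.57 and 0.143 to 0.71 CPM (edgeR adjusted p = 0.393).

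**Figure D4:**
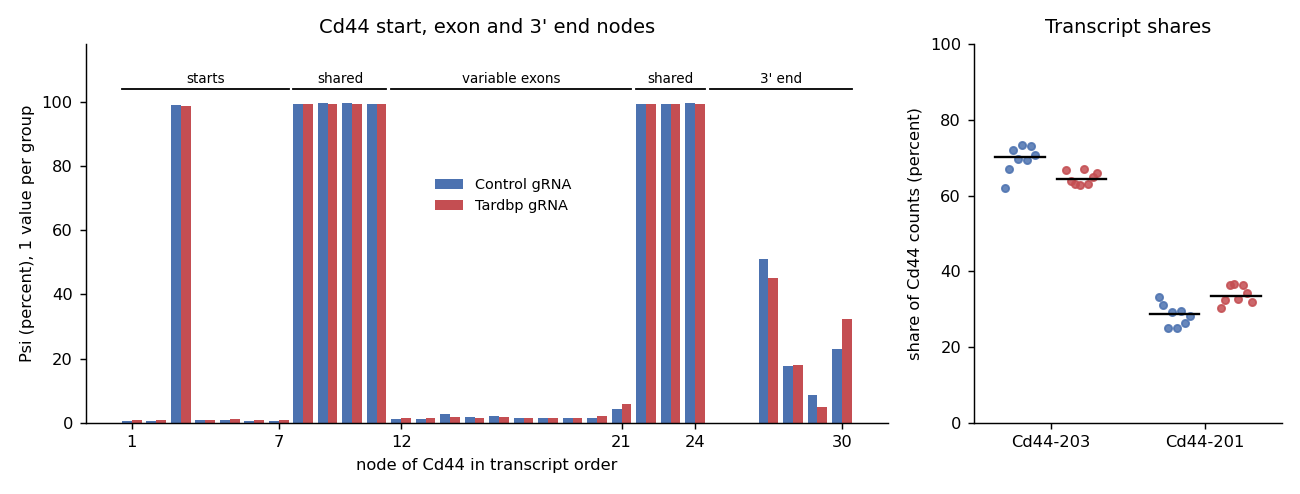
Left, Psi in percent of each of the 30 Cd44 nodes in transcript order, 1 bar per group. Right, the share of Cd44 counts in Cd44-203 and Cd44-201, 1 point per library with a line at the median. The 10 variable exons stay under 6% in both groups while node 30, the distal 3' end, stands at 22.9 and 32.2%.

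Nodes of the other integrin genes were mostly included throughout. Of 193 nodes in the 9 genes (S1pr1 had none listed), 6 differed by more than 10 points between groups, 3.11%, beside 4.70% of 125520 nodes in all genes. No core exon of Itgb1, Itgb2, Itgb7, Itga4 or Itgal differed by more than 2 points, with Psi over 92% in both groups. In Itgal the nodes over 10 points were both start nodes, chr7:127296260-127296290 with 48.8% in Control gRNA against 38.1% in Tardbp gRNA and the adjoining chr7:127296291-127296314 with 32.0 and 45.2%. Itgal-202 and Itgal-201 start there, and their mean shares of Itgal counts went the other way. They were 73.6 and 83.2% for Itgal-202 and 20.9 and 14.7% for Itgal-201, neither passing (limma adjusted p = 0.681 and 0.808). The other 4 nodes over 10 points were core exons of Itgae, the widest at chr11:73138767-73138862 with 67.6 and 89.8%, in a gene under 9 CPM.

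TDP-43 is known to bind stretches of UG repeats in RNA, so the longest run of alternating T and G was read from the most abundant transcript of each gene. It was 10 bases in Itgb1-201, 8 in Itga1-201, 7 in Itga4-201, Itgal-202 and Itgb2-201, 6 in Itgae-201, Itgb7-201 and S1pr1-201, and 5 in Cd44-203. The search took runs of TG or GT repeats on the transcript strand. Of 13152 most abundant transcripts of genes with a mean count over 50, 9.51% held a run of at least 10 bases, 44.3% one of at least 7 and 71.5% one of at least 6. Introns were not searched, and a link between runs and changes in level was not tested. The runs of Itgae-201 and Cd44-203 lie in coding sequence, and that of the third beta chain, Itgb7-201, does not lie wholly in it. The runs of the 2 beta chains below lie in coding sequence and are in capitals, Itgb1 at chr8:128722519-128722528 and Itgb2 at chr10:77564639-77564645, both on the plus strand.
Itgb1-201: tggacaGTGTGTGTGTaggaag
Itgb2-201: tctagaGTGTGTGaagggc

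Genes around these receptors were counted from 6 lists, each beside the 46.7% called over all genes. Of 15 tested other integrin subunits, 3 were called: Itgb3, the beta3 chain of the vitronectin receptor (33.4 to 62.5 CPM in Control gRNA, 16.6 to 37.5 in Tardbp gRNA, -0.98 ± 0.16 log2, SE), and Itga3 (-0.81 ± 0.18) fell, and Itgav, the alpha partner of Itgb3, rose (0.38 ± 0.10). Their levels were low beside those of Itgb1, Itgb2 and Itgb7, and the median over the 15 was -0.11.

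Of 29 tested genes of integrin activation and linkage to actin, 13 were called, 8 higher and 5 lower, with a median of -0.01. Flna, the filamin that binds integrin tails and holds them inactive, fell most (825 to 1262 CPM in Control gRNA, 408 to 688 in Tardbp gRNA, without overlap, -0.83 ± 0.11 log2, SE). Vcl (vinculin, -0.50 ± 0.13) and Tln1 (talin, which switches integrins on, -0.46 ± 0.09) fell as well. Lims1 (PINCH, 0.46 ± 0.06), Itgb1bp1 (ICAP-1, which binds the beta1 tail, 0.40 ± 0.06) and Rapgef1 (0.33 ± 0.09) rose. Fermt3 (kindlin-3), which leukocyte integrins need, differed by -0.01 ± 0.04 (SE, edgeR adjusted p = 0.921).

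In the list of CD44 linkage, shedding and exon choice, 10 of 13 tested genes were called, all lower, with a median of -0.30. Tra2b, a splicing activator known from CD44 variable exons, went from 337 to 520 CPM in Control gRNA to 182 to 314 in Tardbp gRNA (-0.85 ± 0.10 log2, SE), and Hnrnpa1 (-0.55 ± 0.07) and Hnrnpm (-0.36 ± 0.03) fell too. The sheddase Adam17 (-0.48 ± 0.06) fell, as did the linkers Rdx (-0.40 ± 0.06), Ezr (-0.30 ± 0.04) and Msn (-0.23 ± 0.07), which tie CD44 to actin. Srrm1 (-0.17 ± 0.04) and Srsf10 (-0.28 ± 0.06) moved least among the splicing factors called. Psi of the variable exons was at most 5.88% in either group, as given above, with 1 value per group and no test. A link between these genes and Cd44 exon choice was not tested.

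The list of ligands of these receptors also holds Has1, Has2 and Has3, which encode synthases of hyaluronan. Of its 9 tested genes, 5 were called, all higher, with a median of 1.01. Over the settings run this median went from 0.32 (no filter on low counts, 13 genes tested) to 1.08 (upper quartile scaling). With RNA concentration as a covariate it was 0.51. Spp1 (osteopontin, 1.83 ± 0.33 log2, SE), Madcam1 (1.93 ± 0.68) and Vcam1 (1.01 ± 0.29) rose from levels under 8 CPM in every library, and Icam1 (72.3 to 85.2 and 84.1 to 111 CPM, 0.32 ± 0.06) and Icam2 (51.6 to 59.7 and 59.2 to 73.6 CPM, 0.24 ± 0.05), both ligands of LFA-1, rose less. The myeloid genes Lyz2 and Fcgr3 were higher in the same group, as given above, and their part in the low ligands was not tested.

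Of 16 tested genes of homing and egress, 9 were called, 6 higher and 3 lower, with a median of 0.14. Cd69, which pulls S1PR1 off the surface, was at 19.4 to 31.6 CPM in Control gRNA against 43.2 to 65.7 in Tardbp gRNA, without overlap (1.06 ± 0.10 log2, SE, edgeR), while S1pr1 itself did not pass. Klf3 (0.69 ± 0.13) and Foxo1 (0.68 ± 0.16), the latter a known activator of homing receptor genes, rose. Klf2, the activator of S1pr1, ran from 49.1 to 132 CPM and 58.2 to 198 CPM and did not pass (0.52 ± 0.27, SE, edgeR adjusted p = 0.124). Ccr7, the lymph node homing receptor, fell (174 to 252 and 152 to 195 CPM, -0.22 ± 0.07), as did Gnai3 (-0.24 ± 0.04) and Sgpl1, the lyase of sphingosine 1-phosphate (-0.27 ± 0.08).

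Of 13 genes of tissue retention and the response to TGF-beta, the signal that turns on Itgae, 4 rose and 4 fell, with a median of -0.06. Prdm1, which encodes BLIMP-1, fell (9.86 to 20.3 and 4.05 to 13.4 CPM, -1.003 ± 0.22 log2, SE), with Tgfbr1 (-0.34 ± 0.11) and Tgfbr2 (-0.31 ± 0.07). Smad4 (0.65 ± 0.11), Smad7 (0.56 ± 0.10) and Ski (0.48 ± 0.11) rose. Runx3, an activator of Itgae, did not pass (-0.16 ± 0.10, SE, edgeR adjusted p = 0.179).

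**Figure D5:**
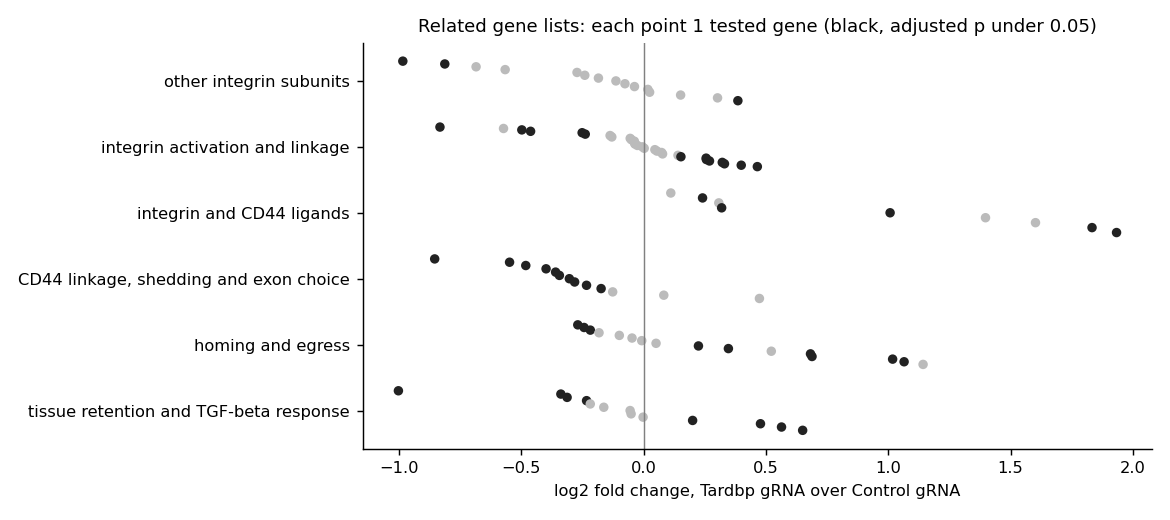
Log2 fold change of the 95 tested genes of the 6 lists, 1 point per gene, black at an adjusted p under 0.05 and grey otherwise. The black points of the CD44 list lie all below 0 and those of the ligand list all above 0, and the other lists have black points on both sides.

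The members also varied between libraries of 1 group, and the genes that varied most like each were named from 8976 genes by Pearson's correlation of log2 CPM around the group means over 16 libraries, as a description. Itgb2 was closest to Golm1 (r = 0.94), Osbpl3 (0.90) and Myadm (0.90), Itgb7 to Trim11 (0.91), Kif23 (0.91) and S1pr4 (0.90), Itgb1 to Nptn (0.89), Gas2l3 (0.89) and Gata3 (0.89), and Itgal to Myo1c (0.94), Msn (0.93) and Ube3b (0.91). Itga4 was closest to Ahnak (0.92), Cd44 to Ncoa4 (0.86), S1pr1 to Tor4a (0.91), Itga1 to Gm20559 (0.88) and Itgae to Ccdc61 (0.88). Among the members, Itga4 and Itgb2 (0.83) and Itgb1 and Itgb7 (0.78) varied most alike, and Cd44 varied little with any other (-0.35 to 0.28). All of these points share libraries and depth.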

How the data were processed

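RNA of sorted OT-I CD8+ cells was sequenced by the authors after SMART-Seq v4 and Nextera XT preparation (8 libraries per group, 29714709 to 48164083 read pairs). Per the submitters' notes, the authors aligned to mm10 with HISAT2 2.1.0 and deposited estimated counts per gene and transcript from StringTie 2.1.0, without normalization. They were whole numbers already. From Whippet they deposited Psi as a fraction per node and group, shown here in percent. Which Psi column belongs to which group was taken from the study. Deposited read pair counts, an RNA concentration without unit and a letter M or F per library served as covariates or checks. The authors' columns of differences and probabilities were not used, nor were 10 columns of each count table that match no sample here. Lines naming no gene held 0.0836 to 0.132% of the counts and were left out.

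Genes and transcripts (GENCODE M21, GRCm38) were fitted with edgeR 4.0.16 in R 4.3.3 (quasi-likelihood, TMM, filterByExpr with minimum count 10, total 15 and proportion 0.7, two-sided, Benjamini-Hochberg over all features, called under 0.05), and shares of transcripts in their gene with limma 3.58.1 (adjusted p under 0.05 and a difference over 0.1). Log2 CPM used a prior count of 2. TPM were computed from transcript counts and annotated lengths, and summed over all transcripts of a gene, coding or not. Chain ratios were compared by exact two-sided permutation of log2 ratios in Python 3.11.15 (5 pairs), smallest p 0.000155. Counting intervals were not needed at these depths, and counts of PCR copies without molecular identifiers are not independent molecules. Alternatives were DESeq2 1.42.0, other scalings and filters, the replicate number as a block, number sets, covariates and leaving out each library. The steps were tested on simulated data, where the test of transcripts recovered fewer changes than that of genes. No pair of libraries in a group agreed within sampling noise.

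The members, the 6 lists, the markers and the rule for naming genes (members, Tardbp, called transcripts, the extremes of each list, a few homing genes and the genes most like each member) were chosen with earlier results of these data known. Some genes of these lists, which the counts include, are not reported here. Globin genes are near-identical copies, so a read of one may have been counted for another and each value is uncertain.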

Additional observations from a re-analysis of the deposited data

Results flagged for a closer look

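In 40 groups of 8 values (the 9 genes and Tardbp, 5 chain ratios and 5 transcript shares, in each guide group), 6 held a library whose gap to the nearest other value exceeded Dixon's 95% limit for 8 values, where chance alone gives about 1 in 20. Itgae stood at 8.60 CPM in Control gRNA library 5, against 0.871 to 3.32 in the other 7, and its ratio to Itgb7 there was 0.00417 against 0.000421 to 0.00185. Tardbp stood lowest at 110 CPM in Tardbp gRNA library 3, against 130 to 147 in the other 7, and without that library its log2 fold change was -0.47. The share of Itgal counts in Itgal-201 was 73.7% in Control gRNA library 8 (6.67 to 21.1% in the others) and 47.5% in Tardbp gRNA library 5 (5.50 to 16.7%). Itgal-202, which starts 31 bases upstream, held 50.2% in the latter library (82.0 to 94.3% in the others).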

How the results depend on the processing

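The count of member genes called, 5, was 4 or 5 on leaving out each library, 3 with upper quartile scaling, with RNA concentration as a covariate and at an adjusted p under 0.01, and 1 in the libraries numbered 1 to 3. Called members were lower in every setting run, and Tardbp kept its call in each. The called counts of the 6 lists moved by over 1.5 times in 2 settings. In libraries 1 to 3 they were 1 (other integrin subunits), 2 (activation and linkage), 0 (ligands), 3 (CD44 linkage), 2 (homing and egress) and 0 (tissue retention), and with RNA concentration they were 0, 5, 2, 5, 4 and 2. Cd44 transcripts called went from 1 to 0 in these same 2 settings, and no setting called a Cd44 share. Chain ratios called, 4, were 1 on estimated counts, 0 in libraries 1 to 3, where the test cannot pass, and 3 to 5 on leaving out each library, an alternative chosen after seeing the data. Of the members not called, Itga1 turned to -0.13 in libraries 1 to 3, Itgae to -0.037 in libraries 4 to 8 and to -0.0093 without Tardbp gRNA library 6 (0.57 without Control gRNA library 5), and S1pr1 to -0.20 with RNA concentration. Cd44-201 turned to -0.0035 with DESeq2 and -0.010 in libraries 1 to 3. The causes were not tested.

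The replicate numbers are shared between groups but did not pair the libraries: deviations of same-numbered libraries correlated at -0.22 to 0.43, over 0.1 in 3 of 8 pairs, and 4 of 16 libraries correlated best with their own number. With the number as a block, 7645 genes were called in place of 7783, and 4 of the members, with Itgal at an adjusted p of 0.108 (edgeR). The block left 3 of the 5 chain ratios called. With it the adjusted p of the Itga4-201 share was 0.0572 and that of the Cd44-201 share 0.13 (limma). Depth limits Itgae and Itga1, with 71 to 786 and 196 to 683 estimated counts per library.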
